A study of Mus musculus with 12 samples.

Results

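The step from the early cleavage stages to the blastocyst was compared between mouse embryos that had developed undisturbed and embryos that had resumed division after an arrest. The comparison used 8 of the 12 arrays of the study, 2 for each of 4 groups. Control embryos were collected at day 2.5, given as 4 to 8 cells, and at day 3.5, given as morula to blastocyst. The embryos of the other groups had been arrested at 4 cells with 20 µM U0126, were then released from the arrest, and were collected at day 3.5, given as 8 cells, and at day 4.5, given as morula to blastocyst. All embryos came from the outbred ICR strain and carried no stated genetic change. The arrays that did not enter the comparison were from control embryos at day 1.5, given as 2 cells, and from embryos still in U0126 at day 2.5. The released step was released day 4.5 minus released day 3.5, and the control step was control day 3.5 minus control day 2.5. Their difference, called the interaction here, was taken for each gene as the released step minus the control step. It equals the end difference (released day 4.5 minus control day 3.5) minus the start difference (released day 3.5 minus control day 2.5). A gene with a high interaction could therefore have been higher in the released embryos at the end, or lower in them at the start. Released embryos were collected on a later day than controls at both the start and the end. At the start they are given as 8 cells, and controls as 4 to 8 cells. Release, age and stage therefore cannot be told apart in the start and end differences.

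U0126 blocks the kinases MEK1 and MEK2, which phosphorylate and activate ERK. In the blastocyst, FGF4 from the epiblast precursors acts through FGF receptors and ERK to set the primitive endoderm apart from the epiblast, and it also sustains the trophoblast stem cells of the polar trophectoderm. Between the 8-cell stage and the blastocyst the outer cells polarise, form an epithelium and become trophectoderm under Cdx2, Gata3 and Tead4, while inner cells keep Pou5f1, Nanog and Sox2. Stored oocyte transcripts are cleared before and during these divisions.

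Each array was a genome-wide measurement of messenger RNA, and the levels given are log2(intensity + 1). Over the 9929 genes tested, the 2 arrays of each group had correlations of 0.955 to 0.980. The number of arrays limits the precision, and the median standard error of an interaction was 0.49 log2 units. The design text mentions 2 independent experiments, while no label says whether the replicates are separate cultures or animals, so p-values reflect only how far these arrays differed, and that spread may be technical. The embryo markers Pou5f1, Cdx2, Krt8, Krt18, Nanog and Gata6 reached log2 levels between 10.23 (Cdx2) and 14.58 (Krt8) on their highest array. Of the markers of other cells, 1 of 14 matched for cumulus and granulosa cells, 2 of 11 for oviduct epithelium, 2 of 12 for sperm and 2 of 12 for blood and immune cells were high enough to be tested. Of these 7 genes 0 were called in the interaction by limma and 1 had an unadjusted p under 0.05. The summed log2 level of the blood and immune list lay at 40.11 to 40.32 in control day 2.5 and at 45.03 to 47.32 in the other groups, and its part in the results was not tested. Its member Laptm5 rose in both steps (2.07 in released and 4.82 in control embryos). Whole embryos were measured, so fewer cells of a type and less RNA per cell cannot be told apart. Errors of differences are standard errors, n is 2 arrays per group throughout, and p-values are adjusted by Benjamini-Hochberg over all 9929 genes from limma's moderated test, with 0.05 as the threshold.

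The final step was not the same in released and control embryos for 231 of the 9929 genes (2.33%). Released embryos had the higher step in 101 of them (1.02%) and the lower step in 130 (1.31%), and 1771 genes had an unadjusted p under 0.05. Elf5 and Gata2, of the trophoblast, and Sox17, of the primitive endoderm, had the higher step in released embryos, and Lrp2, of the trophectoderm, the lower one. The pluripotency gene Nanog and the antioxidant genes Hmox1 and Cat also had the lower step. With the replicate number as a block 613 genes were called (6.17%), 249 higher and 364 lower, and 0 of the 231 were lost. When each array was centred on its median, 248 were called, of which 141 were higher (56.9%, against 43.7% without centring). The median interaction of all genes was -0.125, and 0.037 with centring, and each of the 50 named calls kept its direction and its call with centring. Leaving out 1 array lowered the count to between 30 (without array 2 of released day 4.5) and 115 (without array 1 of control day 3.5), and 25 genes were called in each of the 8 fits that left out an array.

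The control step changed 2146 genes (21.6%), 1324 upward and 822 downward, and the released step 1365 (13.7%), 732 upward and 633 downward. The steps share no array. Over the 9929 genes their sizes had a correlation of r = 0.553 across genes, which are not independent replicates. The standard deviation over genes was 1.01 log2 units for the control step and 0.914 for the released step. Genes that rose in both steps numbered 353, which was 26.7% of those that rose in control embryos and 48.2% of those that rose in released embryos. For genes that fell in both, 251, the shares were 30.5% and 39.7%. Of the 231 genes with an interaction, 113 changed past the threshold in the control step and not in the released step, and 80 the other way round. A further 22 changed in opposite directions, 16 changed in the same direction by unequal amounts, and 0 were unchanged in both.

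**Figure D1:**
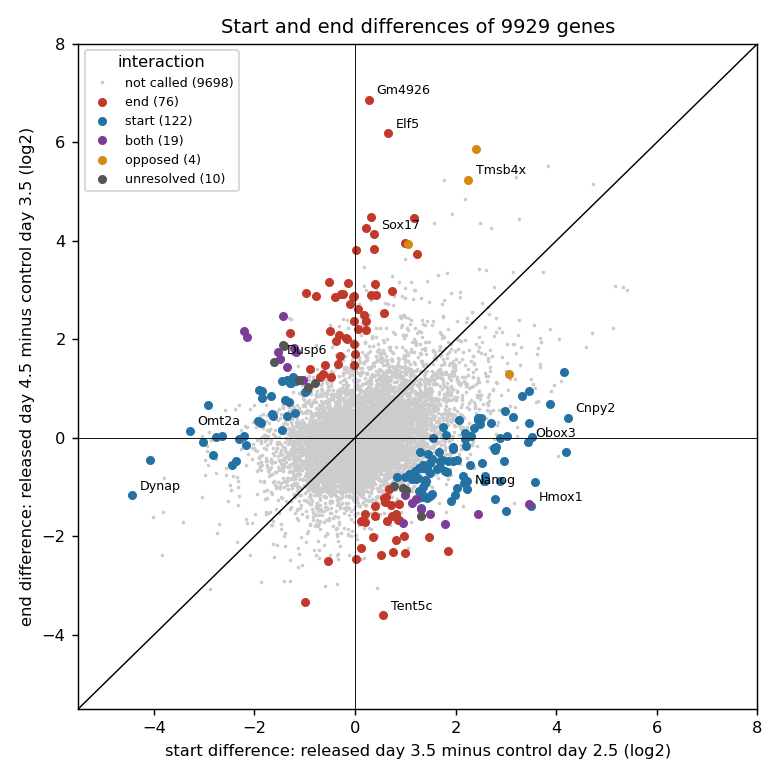
Each point is 1 of 9929 genes, with its difference between released and control embryos at the start of the step (horizontal, log2) and at the end (vertical, log2). The diagonal marks an interaction of 0. Red points, 76 genes, had a called interaction with the end difference alone called, and blue points, 122 genes, with the start difference alone called. Purple points, 19 genes, had both called in the direction of the interaction. Orange points, 4 genes, had a called difference that worked against it. Dark grey points, 10 genes, had a called interaction with neither difference passing by itself. Light grey points had no called interaction.

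The source of each interaction was read from the same fit. At the start, released and control embryos differed in 1252 genes (12.6%), 854 of them higher in released embryos, and at the end in 584 (5.88%), 382 of them higher. With the replicate block these counts were 2017 and 1017. Median centring left 606 of 1193 start differences higher (50.8%, against 68.2%). Among the 231 genes, 122 had a called start difference alone, 76 a called end difference alone and 19 both, in each case in the direction of the interaction. In 4 genes a called difference worked against the interaction, and in 10 neither end nor start passed by itself. The sum of the end and start differences, which tests whether one contributes more than the other, was higher in 1035 of all genes (10.4%) and lower in 556 (5.60%). It showed a larger share of the end in 49 of the 76 end genes and a larger share of the start in 57 of the 122 start genes. For the remaining genes of both classes the assignment rests on which difference passed the threshold. With the replicate block there were 171 end genes, 360 start genes and 47 genes with both, and 203 of the 231 kept their class.

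The classes followed different courses through the 4 groups. The 47 end genes with a higher interaction had median levels of 4.29 and 4.09 in control day 2.5 and day 3.5, 4.38 in released day 3.5 and 7.43 in released day 4.5, and 43 of them rose in the released step. Their medians in the arrays outside the comparison, 4.64 at control day 1.5 and 4.55 under U0126, were also low. The 29 end genes with a lower interaction had medians of 8.01, 8.42 and 8.70 in the first 3 of these groups and 6.42 in released day 4.5, and 27 fell in the released step. The 87 start genes with a lower interaction went from 5.33 to 7.50 in control embryos, and 78 rose in that step. Released embryos already had a median of 7.49 at day 3.5 and one of 7.03 at day 4.5. Under U0126 the median of these genes was 5.85, and at control day 1.5 it was 4.93. The 35 start genes with a higher interaction mirrored this course, with 7.17 and 4.63 in control embryos and 4.86 and 5.23 in released embryos, and 32 fell in the control step. They stood at 8.41 at control day 1.5 and at 8.20 under U0126. Genes entered a class by these differences, so the medians describe the classes and test nothing.

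**Figure D2:**
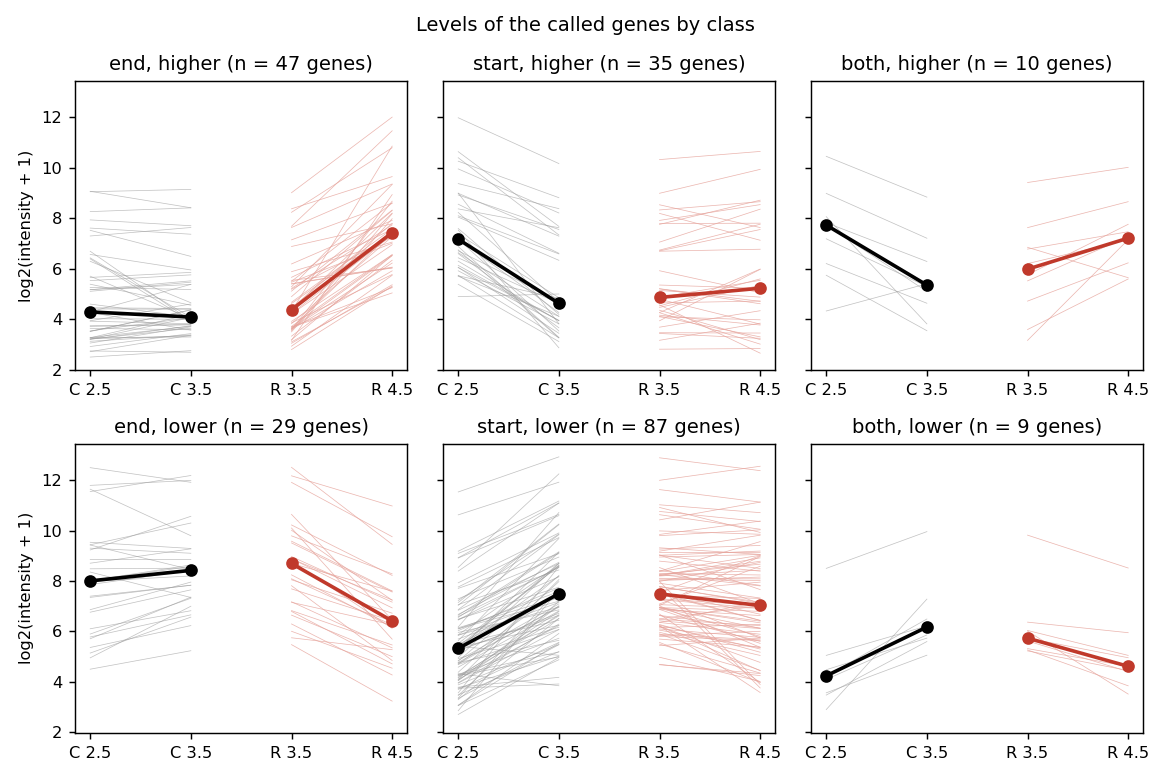
Levels, log2(intensity + 1), of the called genes in control day 2.5 (C 2.5), control day 3.5 (C 3.5), released day 3.5 (R 3.5) and released day 4.5 (R 4.5) embryos. Thin lines are genes (means of 2 arrays), thick lines the medians of a class. End genes stand apart in R 4.5 (median 7.43 for the higher ones) and start genes in C 2.5 (median 5.33 for the lower ones).

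Among the end genes with a higher interaction were Elf5, Gata2 and Plac1, of the trophoblast. Their levels in released day 4.5 embryos were not seen in control day 3.5 embryos. They do not stand for the lineage: the 22 trophectoderm genes tested had a median interaction of -0.23, with 2 called higher and 1 lower. Elf5, an ETS factor that maintains trophoblast stem cells, lay at 2.50 and 2.50 in control day 2.5, 2.77 and 2.73 in control day 3.5, 2.91 and 3.41 in released day 3.5 and 8.15 and 9.73 in released day 4.5 embryos. The released day 4.5 arrays stood alone, and all others were below 5, a level at which signal is near background. The interaction was 5.53 ± 0.60 (adjusted p = 0.00393), made of an end difference of 6.19 ± 0.42 (adjusted p = 6.47e-05) and a start difference of 0.66 ± 0.42 (adjusted p = 0.341). With levels under 5 set to 5 the interaction was 3.94. Gata2, a trophoblast factor of the GATA family, was at 3.93 and 4.65 in control day 2.5, 5.96 and 4.80 in control day 3.5, 5.14 and 5.43 in released day 3.5 and 8.95 and 9.74 in released day 4.5. Its interaction of 2.97 ± 0.67 (adjusted p = 0.0482) came from the end, 3.96 (adjusted p = 0.00165). It was lost without any array other than array 1 of control day 3.5, up to 0.184, in a fit of the 8 arrays alone and with the robust variance prior. Plac1, an X-linked gene of the placenta that was singled out after its values were seen, was at 2.80 and 3.61 in control day 2.5, 4.10 and 3.38 in control day 3.5, 4.22 and 4.53 in released day 3.5 and 8.43 and 7.99 in released day 4.5 and had an interaction of 3.29 ± 0.50 (adjusted p = 0.0124), with 4.47 at the end and 1.17 at the start.

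The sequence upstream of these genes was read from RefSeq on GRCm38.p6 to describe the start sites of the end genes with a higher interaction by their CpG dinucleotides and short motifs. The 250 bases before the start site were available for 42 of these 47 genes and for 8156 of all genes tested. The ratio of observed to expected CpG was under 0.5 in 19 of the 42 (45.2%), against 20.6% of the 8156. The share was 31.8% of 22 end genes with a lower interaction, 31.3% of 67 start genes with a lower one and 20.8% of 24 start genes with a higher one. The end genes with a higher interaction had medians under 5 in every group but released day 4.5, and the 8156 genes were not matched for level. Whether the CpG and motif shares go with the interaction or with low levels elsewhere was not tested. Capitals in the sequences mark the letters of the AP-1 (TGANTCA), of the GATA factor (AGATAA), of the TEAD family (GGAATG), of the octamer core (ATGCAAA), of the SOX family (ACAATG) and of the E-box (CACGTG) motif, each on either strand. No 2 of the matches shown overlap, and a match is a description of letters and not of binding. Elf5 (chr2:103411848-103412097, plus strand) and Plac1 (chrX:53240111-53240360, minus strand) are shown as CpG-poor examples, each 5′ to 3′ and ending at the base before the start site.
Elf5: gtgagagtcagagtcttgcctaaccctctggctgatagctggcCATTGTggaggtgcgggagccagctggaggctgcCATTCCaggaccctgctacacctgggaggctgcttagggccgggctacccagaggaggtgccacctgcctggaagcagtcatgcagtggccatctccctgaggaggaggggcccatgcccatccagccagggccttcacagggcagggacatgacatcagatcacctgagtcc
Plac1: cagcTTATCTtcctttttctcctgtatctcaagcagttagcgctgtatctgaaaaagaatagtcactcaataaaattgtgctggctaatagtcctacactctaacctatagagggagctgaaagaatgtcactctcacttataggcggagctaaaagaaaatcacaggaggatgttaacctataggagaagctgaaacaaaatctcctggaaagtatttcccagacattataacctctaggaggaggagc
Each window held 2 CpG, and the ratios were 0.0814 for Elf5 and 0.196 for Plac1. Elf5 had 1 TEAD match from base -173 to -168 and 1 SOX match from -207 to -202, both on the reverse strand, and Plac1 had 1 GATA match from -246 to -241. TEAD letters occurred in 14.3% of the end genes with a higher interaction and in 818 of all 8156 genes, GATA letters in 9.52% and 5.32%, and SOX letters in 9.52% and 5.86%. The AP-1, octamer core and E-box shares were 7.14%, 2.38% and 16.7% against 4.07%, 2.94% and 9.01%. The TEAD, GATA and SOX shares are 6, 4 and 4 of 42 genes, with Elf5 and Plac1 among them. In end genes with a lower interaction they were 18.2%, 9.09% and 4.55%. In start genes they were 13.4%, 4.48% and 10.4% with a lower interaction and 0%, 4.17% and 16.7% with a higher one.

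The highest interaction among all genes belonged to Gm4926, a predicted gene, at 4.06 and 3.99 in control day 2.5, 4.07 and 3.92 in control day 3.5, 3.98 and 4.63 in released day 3.5 and 10.51 and 11.22 in released day 4.5. The interaction was 6.59 ± 0.53 (adjusted p = 0.00117), the end difference 6.87 and the start difference 0.28. Serpinb6b, a protease inhibitor of the serpin family, had the same shape, at 3.35 and 3.20 in control day 2.5, 3.63 and 3.81 in control day 3.5, 3.12 and 3.88 in released day 3.5 and 8.36 and 7.61 in released day 4.5. All 6 arrays before released day 4.5 were under 4, and the interaction was 4.04 ± 0.46 (adjusted p = 0.00515), or 2.98 with levels under 5 set to 5. Sox17, a transcription factor of the primitive endoderm, lay at 3.09 and 3.44 in control day 2.5, 3.38 and 3.21 in control day 3.5, 3.11 and 4.19 in released day 3.5 and 6.998 and 7.87 in released day 4.5. Only the released day 4.5 arrays were above 5. Its interaction of 3.76 ± 0.73 (adjusted p = 0.0277), with an end difference of 4.14 (adjusted p = 0.00190), was lost without any 1 array other than array 2 of released day 3.5, up to an adjusted p of 0.119. With levels under 5 set to 5 it came to 2.43.

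Kctd15, a BTB-domain protein, differed from these in that control embryos lost it. It was at 6.14 and 6.73 in control day 2.5, 4.18 and 3.97 in control day 3.5, 5.59 and 5.35 in released day 3.5 and 6.78 and 7.25 in released day 4.5, so released embryos rose to a level that control embryos had left. The interaction was 3.91 ± 0.51 (adjusted p = 0.00717), with 2.94 (adjusted p = 0.00175) at the end and -0.96 (adjusted p = 0.104) at the start. Nupr1, a small stress-induced chromatin protein, likewise fell in the control step (-2.49, adjusted p = 0.00171) and ended higher in released embryos (3.16, adjusted p = 0.00162). Unlike that of Kctd15, the released step of Nupr1 did not pass (1.17, adjusted p = 0.0608). Its interaction of 3.67 ± 0.52 (adjusted p = 0.0106) was lost without array 2 of control day 3.5 (adjusted p = 0.0504) or array 2 of released day 4.5 (0.0598). Cpd, which encodes a carboxypeptidase, had an interaction of 3.65 ± 0.57 (adjusted p = 0.0133), lost without array 2 of control day 2.5 (adjusted p = 0.0577), array 2 of control day 3.5 (0.0557) or array 1 of released day 4.5 (0.0517). Gulp1, an adaptor for the engulfment of dying cells, had 4.16 ± 0.74 (adjusted p = 0.0211), and Mdfic, a regulator of transcription factors, 3.80 ± 0.63 (adjusted p = 0.0173). Both lay under 5 in control day 2.5 and released day 3.5, and came to 3.67 and 3.13 with levels under 5 set to 5. Their control day 3.5 arrays differed, at 5.01 and 3.39 for Gulp1 and 5.12 and 3.61 for Mdfic. Gulp1 was lost without either array of control day 2.5, array 2 of control day 3.5, array 1 of released day 3.5 or array 2 of released day 4.5, up to 0.0917, and Mdfic without either array of control day 2.5 or of released day 3.5 or array 2 of released day 4.5, up to 0.0789.

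In order of size the 47 end genes with a higher interaction, from 6.59 down to 1.50, were Gm4926, Elf5, Gulp1, Serpinb6b, Kctd15, Mdfic, Sox17, Nupr1, Cpd, Mbnl3, Tmcc3, Rhbdl2, Plac1, Glipr2, Upp1, Adam19, Gata2, Blnk, Havcr1, Myof, Rab15, Patj, Pcca, Osbpl5, Npr2, Gstk1, Lif, Errfi1, Slc7a7, Sema3b, Mlxip, Tfpi, Slc7a8, Mxd4, Lima1, Epn3, Rundc3b, Wnt6, Glb1, Inava, Susd6, Tmem8b, Plcd1, Serhl, Tmem131l, Farp1 and Bmp4. The sum of end and start showed a larger share of the end in 39 of them, 38 were called again with levels under 5 set to 5, and 8 in every fit that left out an array.

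**Figure D3:**
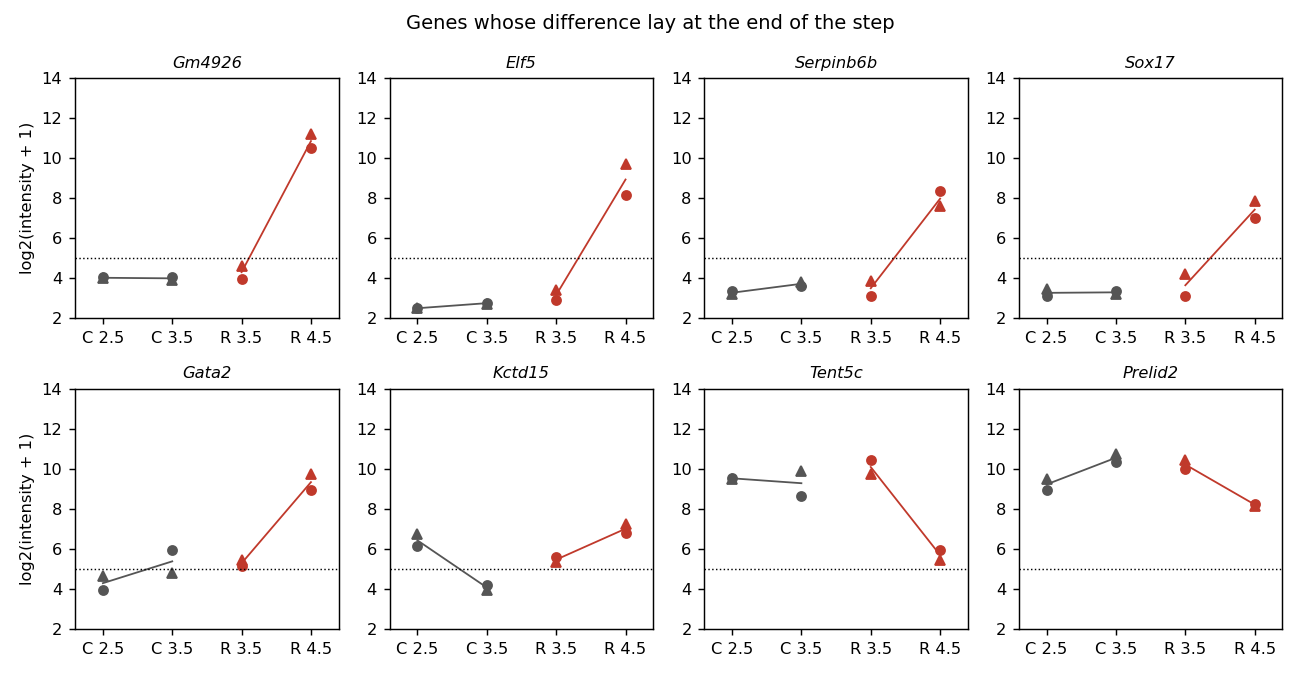
Levels, log2(intensity + 1), on each array of control (grey) and released (red) embryos for 8 genes with the end difference alone called. For Prelid2 the sum of end and start did not show which contributed more (limma adjusted p = 0.0629). Circles are array 1 and triangles array 2, lines join group means, and the dotted line marks a level of 5. Elf5 reaches 8.15 and 9.73 in released day 4.5 (R 4.5) and stays under 4 elsewhere, while Tent5c drops to 5.95 and 5.44 there.

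End genes with a lower interaction were mostly those that fell in the released step, 27 of 29. Tent5c, a poly(A) polymerase, lay at 9.58 and 9.50 in control day 2.5, 8.66 and 9.92 in control day 3.5, 10.46 and 9.74 in released day 3.5 and 5.95 and 5.44 in released day 4.5. Only the released day 4.5 arrays were low, and the interaction was -4.16 ± 0.64 (adjusted p = 0.0129), with -3.60 (adjusted p = 0.00196) at the end and 0.56 (adjusted p = 0.453) at the start. It was lost without array 2 of control day 2.5 (adjusted p = 0.0505), of control day 3.5 (0.0504) or of released day 4.5 (0.0711). Prelid2, a protein of the mitochondrial PRELI family, rose in the control step (1.33, adjusted p = 0.0136) and fell in the released step (-2.001, adjusted p = 0.00341), at 8.94 and 9.53 in control day 2.5, 10.37 and 10.76 in control day 3.5, 9.997 and 10.45 in released day 3.5 and 8.27 and 8.17 in released day 4.5. Its interaction was -3.34 ± 0.44 (adjusted p = 0.00820), and the end difference of -2.34 passed while the start difference of 0.99 did not (adjusted p = 0.0642). The start differences of Prelid2, Clic3 and Pitpnc1 passed as well with the replicate block (adjusted p = 0.0282, 0.0275 and 0.0213). Clic3, a chloride channel protein, had an interaction of -4.13 ± 0.83 (adjusted p = 0.0309), and Pitpnc1, a phosphatidylinositol transfer protein, one of -3.48 ± 0.61 (adjusted p = 0.0201). For both the sum of end and start did not show which contributed more (adjusted p = 0.772 and 0.594). Clic3 was lost without any array except array 1 of control day 2.5 and array 1 of released day 4.5, up to 0.106, and in a fit of the 8 arrays alone. Pitpnc1 was lost without array 1 of control day 2.5, array 2 of control day 3.5, array 2 of released day 3.5 or either array of released day 4.5, up to 0.0789. The 29 genes, from -4.16 to -1.72, were Tent5c, Clic3, Pitpnc1, Prelid2, Whrn, Rnd1, Greb1l, Actn2, Cacul1, Dnajb2, Naalad2, Unkl, Dlc1, Gnpnat1, Stmn3, 1700048O20Rik, Tlcd1, Ampd2, Inip, Sephs1, Pnpla3, Tmem158, Cep76, Fdx1, Stam2, Sap30, Slc25a33, Nus1 and Dazap1. A larger share of the end was shown in 10 of them.

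The largest class was that of start genes with a lower interaction, most of which rose in control embryos and were already at the later level in released day 3.5 embryos. Nanog, the homeobox factor of the epiblast precursors, was at 8.56 and 8.23 in control day 2.5, 11.25 and 10.93 in control day 3.5, 10.90 and 10.36 in released day 3.5 and 10.13 and 9.98 in released day 4.5. Control day 2.5 stood below the 3 other groups, and released day 4.5 lay between it and control day 3.5. Nanog rose by 2.70 in the control step and had a released step of -0.58 (adjusted p = 0.268). The interaction of -3.27 ± 0.45 (adjusted p = 0.00924) rested on a start difference of 2.24 ± 0.32 (adjusted p = 0.00292), with an end difference of -1.04 (adjusted p = 0.0889), and was lost without array 2 of released day 4.5 (adjusted p = 0.0518). The Nanog start site (chr6:122707239-122707488, plus strand, GRCm38.p6) is printed because its well-known octamer and SOX letters lie side by side in this window, again with motif letters in capitals.
Nanog: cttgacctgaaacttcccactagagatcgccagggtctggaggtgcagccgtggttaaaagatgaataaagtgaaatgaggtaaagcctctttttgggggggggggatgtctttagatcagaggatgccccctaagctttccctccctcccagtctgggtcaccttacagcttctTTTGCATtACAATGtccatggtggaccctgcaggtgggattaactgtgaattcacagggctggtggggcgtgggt
The octamer core ran from base -75 to -69 on the reverse strand and the SOX letters from -67 to -62, and the window held 3 CpG. Octamer core letters were found in 3 of 67 start genes with a lower interaction (4.48%) and in 2.94% of all genes. SOX letters were found in 7 of the 67 (10.4%) and in 5.86% of all genes, and Nanog is counted in both shares. In start genes with a higher interaction the octamer core and SOX shares were 4.17% and 16.7%. In end genes they were 2.38% and 9.52% with a higher interaction and 4.55% and 4.55% with a lower one. Whether these shares differ was not tested.

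Cat and Hmox1, enzymes of oxidant defence, were in the same class. Cat, which encodes catalase, lay at 7.14 and 6.93 in control day 2.5, 10.40 and 10.07 in control day 3.5, 9.34 and 10.26 in released day 3.5 and 9.88 and 10.19 in released day 4.5. Control day 2.5 was low and the other groups overlapped. Its interaction was -2.97 ± 0.46 (adjusted p = 0.0129), with -0.20 (adjusted p = 0.802) at the end and 2.76 (adjusted p = 0.00139) at the start, and was lost without array 2 of control day 2.5 (adjusted p = 0.0562) or either array of released day 4.5 (0.0502 and 0.0555). Hmox1, the inducible heme oxygenase, was at 2.79 and 2.63 in control day 2.5, 5.58 and 4.35 in control day 3.5, 6.49 and 5.95 in released day 3.5 and 3.25 and 3.92 in released day 4.5. It fell in the released step (-2.64, adjusted p = 0.00694) and rose in the control step (2.26, adjusted p = 0.00913). The interaction of -4.90 ± 0.69 (adjusted p = 0.00959) had a start difference of 3.51 (adjusted p = 0.00250), and the sum of end and start did not pass (adjusted p = 0.0601). With levels under 5 set to 5 it came to -1.51.

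Cnpy2, a protein of the endoplasmic reticulum, lay at 6.61 and 5.75 in control day 2.5, 10.93 and 10.50 in control day 3.5, 10.05 and 10.80 in released day 3.5 and 10.97 and 11.29 in released day 4.5. Released embryos were thus at the later level on all 4 arrays, and the interaction was -3.83 ± 0.53 (adjusted p = 0.00924), with 0.41 (adjusted p = 0.601) at the end and 4.25 (adjusted p = 4.90e-04) at the start. Rfx4, an RFX transcription factor, lay under 5 on both arrays of control day 2.5 and had an interaction of -4.48 ± 0.57 (adjusted p = 0.00717), or -2.84 with levels under 5 set to 5. The uncharacterised 4933402E13Rik lay at 3.38 and 2.76 in control day 2.5 and had -3.77 ± 0.44 (adjusted p = 0.00515), or -1.71 with levels under 5 set to 5. The interaction of Tex19.2, a germ cell gene, was -4.50 ± 0.63 (adjusted p = 0.00959) and was lost without array 2 of released day 4.5 (0.0526). The end differences of Rfx4 (-0.89) and Tex19.2 (-1.49) passed as well once the replicate number was a block (adjusted p = 0.0443 and 0.0204), which puts both genes in the class with start and end called. Obox3, an oocyte-specific homeobox gene, differed from these. It was at 4.33 and 4.32 in control day 2.5, 4.01 and 3.69 in control day 3.5, 8.05 and 7.49 in released day 3.5 and 3.76 and 3.76 in released day 4.5, so that released day 3.5 stood above all 6 other arrays, and it fell in the released step (-4.01, adjusted p = 1.86e-04) with a control step of -0.48 (adjusted p = 0.350). Its mean was 11.60 at control day 1.5 and 6.81 under U0126. The interaction was -3.54 ± 0.48 (adjusted p = 0.00924).

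Lrp2, the endocytic receptor megalin of the trophectoderm, was at 9.25 and 7.83 in control day 2.5, 12.54 and 11.95 in control day 3.5, 12.18 and 11.81 in released day 3.5 and 12.80 and 12.31 in released day 4.5. Both arrays of control day 2.5 were below all others, the interaction was -3.15 ± 0.61 (adjusted p = 0.0285), and the end difference was 0.30 (adjusted p = 0.774). It was lost without any array other than array 1 of control day 2.5, up to 0.121. Ezr, which encodes ezrin of the apical membrane, had an interaction of -2.73 ± 0.62 (adjusted p = 0.049997) and Jun, a part of the AP-1 factor, one of -2.26 ± 0.47 (adjusted p = 0.0366). Both were lost without any 1 of the 8 arrays, up to 0.161 and 0.144. Cldn9, a claudin of tight junctions, had -4.02 ± 0.77 (adjusted p = 0.0270), or -2.94 with levels under 5 set to 5. It lay at 4.10 and 4.37 in control day 2.5, and its released day 4.5 arrays differed, at 6.39 and 4.36. The call was lost without any array other than array 1 of released day 4.5 and in a fit of the 8 arrays alone.

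In order of size the 87 genes, from -4.90 to -1.53, were Hmox1, Tex19.2, Pramel18, Rfx4, Cldn9, Cnpy2, 4933402E13Rik, Obox3, Mymx, Cyp4f39, Pgap1, Marveld3, Elovl7, Nanog, H2-DMa, Ptges, 2210409E12Rik, Lrp2, Cidea, Slc38a9, Pfkfb4, Slc28a3, Alox5ap, Slc25a13, Fam117a, Cat, Trp53bp2, B3galnt1, Senp8, Tpp1, Rab29, Ezr, 5330411J11Rik, Fam102b, Wdr95, Sec24d, Gm21283, Ppargc1b, 5033406O09Rik, Nlrp4c, Txndc12, 1700007K13Rik, Ppp1r3b, Efcab2, Chmp2b, Uvrag, 2310011E23Rik, Cbx6, Poglut1, Laptm4b, Oard1, Zfp760, Nek4, Jun, Rhox5, Usp2, S100a14, Lgals4, 8030474K03Rik, Mt4, Dok1, Chchd5, Adprm, Wdr1, Klhl30, Wscd2, Ndufb1, 2810408I11Rik, Fam122b, Mgat5, Ceacam10, Asf1b, Znrd1as, Efna3, Agfg1, Tuba4a, Map2k3, Asz1, Psmg2, Eif2d, Trappc5, Rsad2, Mlec, Snx10, Zfp275, Ppil3 and Rab21. A larger share of the start was shown in 41 of them, 72 were called again with levels under 5 set to 5, and 9 in every fit that left out an array.

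**Figure D4:**
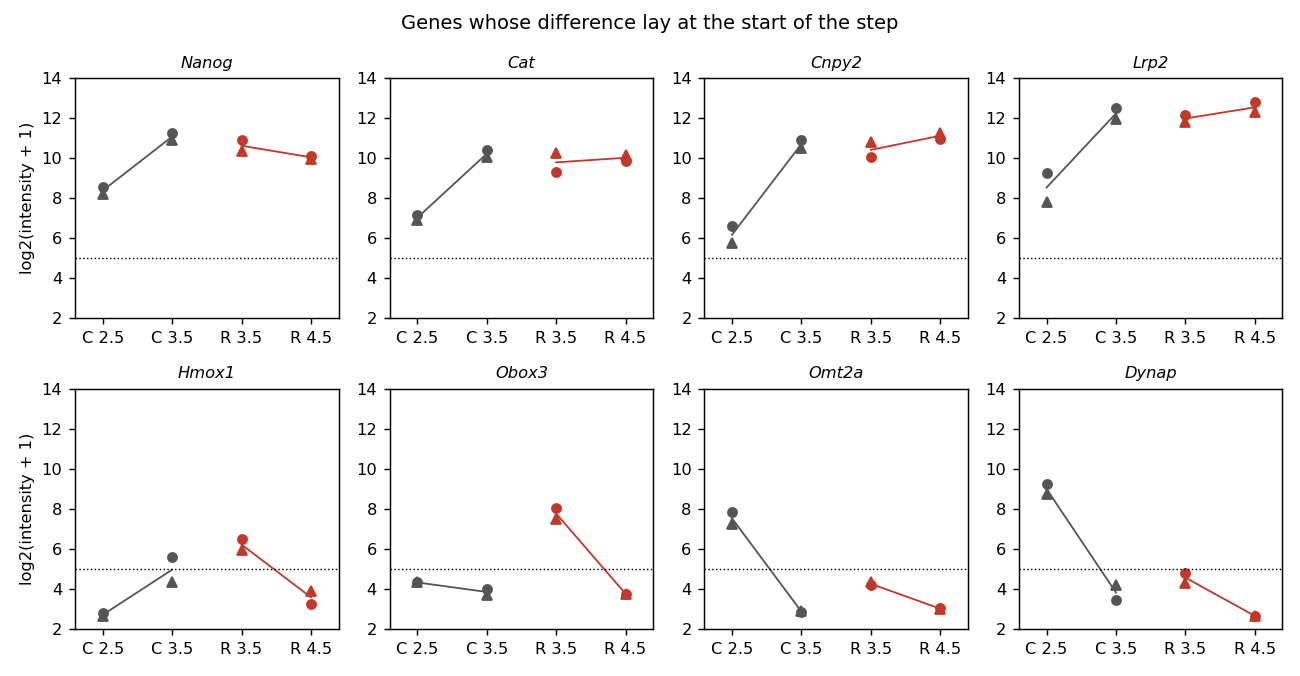
Levels, log2(intensity + 1), on each array of control (grey) and released (red) embryos for 8 genes with the start difference alone called. For Hmox1 the sum of end and start did not show which contributed more (limma adjusted p = 0.0601). Circles are array 1 and triangles array 2, lines join group means, and the dotted line marks a level of 5. Nanog is at 8.56 and 8.23 in control day 2.5 (C 2.5) and at 9.98 or more on all other arrays, and Omt2a is at 7.83 and 7.24 in C 2.5 and under 5 elsewhere.

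Start genes with a higher interaction were on in control day 2.5 and already low in released day 3.5 embryos. Omt2a, an oocyte maturation transcript, lay at 7.83 and 7.24 in control day 2.5, 2.85 and 2.88 in control day 3.5, 4.18 and 4.33 in released day 3.5 and 3.05 and 2.98 in released day 4.5, with 13.18 at control day 1.5 and 9.67 under U0126. It fell in the control step (-4.67, adjusted p = 5.94e-05) and in the released step (-1.25, adjusted p = 0.0244), and the interaction was 3.42 ± 0.43 (adjusted p = 0.00717), with 0.15 (adjusted p = 0.857) at the end and -3.28 (adjusted p = 6.42e-04) at the start. Dynap, a membrane protein that binds dynactin, was at 9.23 and 8.77 in control day 2.5, 3.44 and 4.20 in control day 3.5, 4.81 and 4.32 in released day 3.5 and 2.66 and 2.65 in released day 4.5. Here also both steps were downward (-5.18 and -1.91), and the interaction was 3.27 ± 0.45 (adjusted p = 0.00924). The released steps of Omt2a and Dynap lay wholly under 5, near background, which limits what these falls show. With levels under 5 set to 5 their interactions were 2.53 and 4.00. The end difference of Dynap, -1.16 and against the direction of its interaction, passed only with the replicate block (adjusted p = 0.0434). Btg4, an adaptor of the deadenylase that removes maternal messages, had 1.91 ± 0.41 (adjusted p = 0.0422), with a start difference of -2.37 (adjusted p = 0.00159), and was lost without any 1 array (up to 0.172). Myc, the growth-promoting transcription factor and an ERK target, lay at 8.002 and 8.09 in control day 2.5, 6.32 and 6.35 in control day 3.5, 6.80 and 6.59 in released day 3.5 and 6.94 and 6.61 in released day 4.5. The control day 2.5 arrays were above all others, and the interaction of 1.79 ± 0.39 (adjusted p = 0.0446), lost without any 1 array (up to 0.140), had a start difference of -1.35 (adjusted p = 0.0127). Fcgr3, an Fc receptor, had 2.95 ± 0.58 (adjusted p = 0.0290), lost without any array other than array 1 of control day 3.5, up to 0.105. Khdc1a, a KH-domain protein, had 2.88 ± 0.52 (adjusted p = 0.0220), lost without any array other than array 2 of control day 2.5 and array 2 of released day 3.5, up to 0.100. The 35 genes, from 3.63 to 1.62, were Gm7056, Ovol1, Omt2a, Dynap, Fcgr3, Khdc1a, Itsn1, Fhod3, Pramel29, Aqp11, Ppp1r9a, Mllt6, Zswim5, Brdt, Septin10, Fermt2, Pik3r3, Pxmp2, Klhl8, Pax6, Tmem150c, Parp9, Ptpn9, Tbc1d12, Ubxn2a, Atf2, Kdm5a, Siah2, Npr3, Il6ra, Btg4, Slco4c1, Myc, Rnf24 and Rnf141. A larger share of the start was shown in 16, and 21 were called again with levels under 5 set to 5.

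In 19 genes start and end contributed in the same direction. Dusp6, a phosphatase that inactivates ERK and is induced by it, was at 6.46 and 5.95 in control day 2.5, 4.72 and 4.55 in control day 3.5, 4.89 and 4.54 in released day 3.5 and 5.87 and 6.60 in released day 4.5. It fell in the control step (-1.57, adjusted p = 0.00883) and rose in the released step (1.52, adjusted p = 0.0153), so control day 2.5 and released day 4.5 shared the higher level. The interaction was 3.09 ± 0.47 (adjusted p = 0.0129), with 1.60 (adjusted p = 0.0211) at the end and -1.49 (adjusted p = 0.0182) at the start, and was lost without array 2 of control day 3.5 (adjusted p = 0.0588), of released day 3.5 (0.0510) or of released day 4.5 (0.0681). The Dusp6 start site (chr10:99262981-99263230, plus strand, GRCm38.p6) is printed as the CpG-rich counterpart of those above, with 16 CpG, a ratio of 0.864 and 0 matches to the 6 motifs.
Dusp6: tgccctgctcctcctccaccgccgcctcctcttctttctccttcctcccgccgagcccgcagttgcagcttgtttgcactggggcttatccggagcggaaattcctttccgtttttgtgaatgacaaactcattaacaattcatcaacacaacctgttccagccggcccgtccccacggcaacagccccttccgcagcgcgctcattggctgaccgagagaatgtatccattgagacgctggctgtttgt
Lama3, a laminin alpha chain of epithelial basement membranes, was at 3.19 and 2.62 in control day 2.5, 7.52 and 7.05 in control day 3.5, 6.48 and 6.26 in released day 3.5 and 6.15 and 5.75 in released day 4.5. Only control day 2.5 was below 5, and the interaction was -4.80 ± 0.41 (adjusted p = 0.00117), or -2.70 with levels under 5 set to 5, with -1.33 (adjusted p = 0.0252) at the end, 3.47 (adjusted p = 4.90e-04) at the start and a larger share of the start (2.13, adjusted p = 0.00733). Thrsp, a regulator of lipid synthesis, rose in the control step (1.49, adjusted p = 0.0145) and fell in the released step (-2.50, adjusted p = 0.00200), at 3.61 and 3.53 in control day 2.5, 4.43 and 5.69 in control day 3.5, 6.10 and 5.93 in released day 3.5 and 3.49 and 3.54 in released day 4.5. Its interaction was -3.99 ± 0.50 (adjusted p = 0.00717), and -1.36 with levels under 5 set to 5.

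The other named genes of this class had interactions of 4.39 ± 0.78 (adjusted p = 0.0211) for Limch1, an actin-binding regulator, 4.20 ± 0.65 (adjusted p = 0.0130) for Fam189a2, 3.89 ± 0.58 (adjusted p = 0.0124) for Slc39a2, a zinc importer, and 3.27 ± 0.49 (adjusted p = 0.0124) for Cebpa, a transcription factor of the C/EBP family. The interaction of Camk2d, a calmodulin-dependent kinase, was -3.03 ± 0.48 (adjusted p = 0.0137) and that of Tubb2a, a beta tubulin, -2.76 ± 0.43 (adjusted p = 0.0129). Fam189a2 lay under 5 in control day 3.5 and released day 3.5, and its interaction came to 1.34 with levels under 5 set to 5. Slc39a2 was lost without array 2 of control day 3.5 (0.0523), and Cebpa without array 2 of control day 2.5 (0.0505) or of released day 4.5 (0.0623). Fam189a2 and Tubb2a were lost without array 2 of control day 2.5, of control day 3.5 or of released day 4.5, up to 0.0655 and 0.0727, and Camk2d also without array 2 of released day 3.5, up to 0.0749. Limch1 was lost without any array except array 2 of control day 3.5 and array 1 of released day 4.5, up to 0.0985. The class also held Slc19a3, Acss1, Csrnp1, Tesk2 and Pik3c2a with higher and H2-Ab1, Dmc1, Gm26760, Zfp850 and Krba1 with lower interactions. In the 4 opposed genes, Dmkn, Tmsb4x, Klk7 and Gng10, released embryos were higher at both ends of the step and by unequal amounts. Tmsb4x, an actin-sequestering peptide, was 5.24 higher at the end and 2.25 higher at the start, and Gng10 1.30 and 3.07. The 10 genes with neither difference called were Pdgfra, Prdm14, Tdgf1, Arhgap12, Tcf19, Ppp1r15b, Nefh, Abi2, Mtus2 and Nr6a1.

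The genes were next read by lineage, with lists whose shares are set against the 1.02% of all genes higher and 1.31% lower in the interaction. Of 22 trophectoderm genes tested, 2 had a higher interaction (Elf5 and Gata2) and 1 a lower one (Lrp2), and the median was -0.23. At the end 7 were higher and 0 lower in released embryos (all genes: 5.88% called in either direction), and at the start 9 were higher and 0 lower (12.6%). The end calls beside Elf5 and Gata2 were Eomes, a T-box factor of trophoblast (2.52, adjusted p = 0.0466), Krt7, a trophoblast keratin (2.97, adjusted p = 0.00109), Tspan8, a tetraspanin (3.34, adjusted p = 0.0111), Lgals3, a galectin (3.16, adjusted p = 0.00162), and Fabp3, a fatty acid-binding protein (2.29, adjusted p = 0.0292). Cdx2, the defining factor of the lineage, lay at 7.69 and 7.13 in control day 2.5, 9.81 and 9.50 in control day 3.5, 9.46 and 8.91 in released day 3.5 and 10.23 and 10.08 in released day 4.5. It was 1.77 (adjusted p = 0.0111) higher at the start, and its interaction of -1.27 ± 0.50 (adjusted p = 0.213) did not pass. Gata3 had an interaction of -1.35 (adjusted p = 0.275), Krt18 of -2.23 (adjusted p = 0.185) and Id2, an inhibitor of helix-loop-helix factors, of -2.46 (adjusted p = 0.0700), and each was higher at the start (2.48, 3.68 and 3.55). Krt8, the keratin partner of Krt18, was at 9.98 and 9.19 in control day 2.5, 13.84 and 12.98 in control day 3.5, 13.18 and 13.17 in released day 3.5 and 14.58 and 14.26 in released day 4.5. Its interaction of -2.58 ± 0.59 (adjusted p = 0.0524) missed the threshold and passed with the replicate block (adjusted p = 0.0136).

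**Figure D5:**
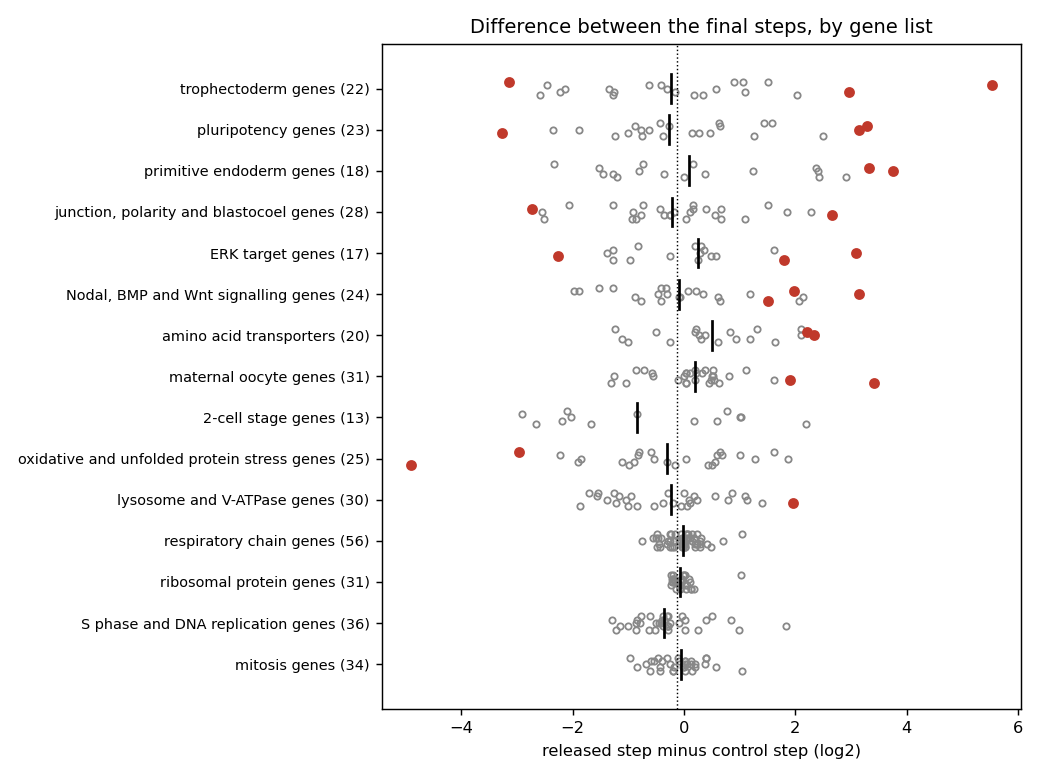
Interaction (released step minus control step, log2) of each tested gene in 15 lists, with the number of genes in parentheses. Filled red points were called, open grey points were not, bars are list medians and the dotted line is the median of all genes, -0.125. Called genes lie at 5.53 (Elf5) and -3.15 (Lrp2) in the trophectoderm list, whose median is -0.23.

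Of 23 pluripotency genes 2 were higher (Prdm14 and Tdgf1) and 1 lower (Nanog), with a median of -0.28. Prdm14, a repressor of differentiation genes, was at 6.44 and 5.56 in control day 2.5, 3.89 and 4.58 in control day 3.5, 4.85 and 4.31 in released day 3.5 and 5.95 and 6.25 in released day 4.5. Its interaction was 3.29 ± 0.69 (adjusted p = 0.0378), and neither the end (1.87, adjusted p = 0.0515) nor the start (-1.42, adjusted p = 0.0850) passed alone. Tdgf1, a co-receptor for Nodal, lay at 9.70 and 9.85 in control day 2.5, 8.36 and 8.79 in control day 3.5, 8.02 and 8.31 in released day 3.5 and 9.82 and 10.42 in released day 4.5 and had 3.15 ± 0.68 (adjusted p = 0.0420). The end difference of Prdm14 (adjusted p = 0.0446) and the start difference of Tdgf1 (adjusted p = 0.0440) passed with the replicate block. Both interaction calls were lost without any 1 array (up to 0.144 and 0.161), and Prdm14 also with levels under 5 set to 5 (2.10) or a pseudocount of 16. Pou5f1, the core factor of pluripotent cells, had an interaction of -1.23 ± 0.65 (adjusted p = 0.362), and Sox2, its partner, one of -2.35 ± 0.83 (adjusted p = 0.167) with a start difference of 2.37 (adjusted p = 0.0263). Lifr, a receptor subunit for LIF, was 2.81 (adjusted p = 0.00401) higher at the end, and its interaction was 2.50 (adjusted p = 0.0524).

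Of 18 primitive endoderm genes 2 were higher, Sox17 and Pdgfra, and 0 lower, with a median of 0.09. Pdgfra, the receptor kinase that marks this lineage, was at 6.53 and 7.12 in control day 2.5, 7.52 and 6.39 in control day 3.5, 5.04 and 5.73 in released day 3.5 and 8.30 and 9.38 in released day 4.5. It rose in the released step (3.45, adjusted p = 0.00214) with a control step of 0.14, and the interaction of 3.32 ± 0.70 (adjusted p = 0.0379) could be assigned to neither the end (1.88, adjusted p = 0.0521) nor the start (-1.44, adjusted p = 0.0841), while with the replicate block the end difference passed (adjusted p = 0.0357). It was lost without any array other than array 1 of control day 3.5, up to 0.145, and in a fit of the 8 arrays alone. At the end Lama1, a laminin of the basement membrane (3.09, adjusted p = 0.00707), Foxq1, a forkhead factor (2.23, adjusted p = 0.0380), and Sparc, a matrix protein (2.66, adjusted p = 0.00443), were higher in released embryos beside Sox17. Gata6 did not differ past the threshold at the end (-0.13, adjusted p = 0.917), at the start (-0.50, adjusted p = 0.498) or in the interaction (0.37, adjusted p = 0.827). Gata4, which acts after Gata6, had an interaction of 2.43 ± 0.64 (adjusted p = 0.0750) that passed with the replicate block (0.0231), from a start difference of -2.18 (adjusted p = 0.0127). All its day 3.5 and later arrays were under 5.

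Of 28 junction, polarity and blastocoel genes 1 was higher, Aqp11, a water channel (2.65, adjusted p = 0.0420), and 1 lower, Ezr, with a median of -0.22. The Aqp11 call was lost without any 1 array (up to 0.139) and with levels under 5 set to 5, and the Ezr call with the robust variance prior. At the start 9 of the 28 were higher, such as Epcam (3.05, adjusted p = 0.00243), an adhesion molecule, and Cldn6 (2.84, adjusted p = 0.00455), and at the end 5, such as Gjb5 (3.16, adjusted p = 0.00401), a connexin of trophoblast, and Cldn3 (2.85, adjusted p = 0.00287). Of all 9929 genes, 854 were higher at the start and 382 at the end. Atp1b1, a subunit of the sodium pump that fills the blastocoel, rose in both steps (2.002 and 1.27), and its interaction was -0.73 (adjusted p = 0.451).

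ERK target genes were read because the arrest had been made by blocking this pathway. Of 17 tested, Dusp6 and Myc were higher and Jun lower, with a median of 0.25. Spry4, a feedback inhibitor of the pathway, was at 5.21 and 4.91 in control day 2.5, 4.41 and 4.40 in control day 3.5, 4.73 and 4.41 in released day 3.5 and 4.23 and 4.16 in released day 4.5, so all 8 arrays were near background, and its interaction was 0.28 (adjusted p = 0.791). Egr1, an immediate-early factor, was higher in released embryos at the end (2.22, adjusted p = 0.0252) and at the start (1.85, adjusted p = 0.0324), with an interaction of 0.37 (adjusted p = 0.850). Fos, its immediate-early companion, had -0.97 (adjusted p = 0.375). The highest of the 8 arrays was 6.20 for Egr1 and 5.92 for Fos, not far above 5, which limits what the sizes of their differences show. Of 15 components of the ERK cascade 0 were called by limma and 5 had an unadjusted p under 0.05, with a median of 0.19. The list includes Fgf4, the ligand made by the epiblast precursors (1.25, adjusted p = 0.242), and the receptor genes Fgfr2 (1.34, adjusted p = 0.201) and Fgfr3 (-2.08, adjusted p = 0.0694). Fgf4 was also low, with a highest level of 6.19. Fgfr3 was lower in released embryos at the end (-1.63, adjusted p = 0.0306).

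Of 24 genes of Nodal, BMP and Wnt signalling, Tdgf1, Wnt6 and Bmp4 were higher and 0 lower, with a median of -0.08. The ligand gene Wnt6 lay at 3.64 and 3.64 in control day 2.5, 3.54 and 3.63 in control day 3.5, 3.81 and 3.90 in released day 3.5 and 5.56 and 5.98 in released day 4.5, with an interaction of 1.97 ± 0.38 (adjusted p = 0.0277) and an end difference of 2.19 (adjusted p = 0.00187). Bmp4, the ligand that patterns the tissue beside the trophoblast, had 1.50 ± 0.33 (adjusted p = 0.0438). Only released day 4.5 was above 5 for both. They were lost without any 1 array (up to 0.127 and 0.151) and with levels under 5 set to 5 (0.77 and 0.25), and Bmp4 also with a pseudocount of 16.

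Amino acid transporters had a median interaction of 0.50 over 20 genes, 2 of them higher and 0 lower. At the end 8 of the 20 were higher in released embryos and 0 lower, against 5.88% of all genes called there. Slc7a7, which exports cationic amino acids, was at 7.005 and 6.13 in control day 2.5, 5.95 and 5.95 in control day 3.5, 6.12 and 6.26 in released day 3.5 and 7.87 and 7.97 in released day 4.5, with an interaction of 2.34 ± 0.48 (adjusted p = 0.0338) from the end (1.97, adjusted p = 0.00887). Slc7a8, a carrier of neutral amino acids, had 2.21 ± 0.40 (adjusted p = 0.0232), and 0.37 with levels under 5 set to 5, where it did not pass. Slc7a7 was lost without any array other than array 2 of control day 2.5 and Slc7a8 without any other than array 1 of control day 3.5, up to 0.132 and 0.106. The end calls included the peptide carrier Slc15a2 (5.31, adjusted p = 0.00104), Slc38a2 (2.33, adjusted p = 0.00795), which takes up small neutral amino acids, and the arginine carriers Slc7a1 (2.38, adjusted p = 0.0405) and Slc7a3 (2.44, adjusted p = 0.00723).

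Of 31 maternal oocyte genes, Omt2a and Btg4 were higher and 0 lower, with a median of 0.21. Klf17, a factor that is high in 2-cell embryos, was at 11.19 and 11.46 in control day 2.5, 6.40 and 7.10 in control day 3.5, 9.17 and 9.77 in released day 3.5 and 7.51 and 6.02 in released day 4.5. Released day 3.5 lay below control day 2.5 (-1.85, adjusted p = 0.0243), and the interaction was 1.87 (adjusted p = 0.153). Of 13 genes of the 2-cell stage 0 were called by limma and 4 had an unadjusted p under 0.05, and the median was -0.84. At the start 6 of the 13 were higher in released embryos and 0 lower, against 12.6% of all genes called there, with Tcstv3 (5.13, adjusted p = 0.00704), Usp17la (5.17, adjusted p = 0.0110), Tcstv1 (4.05, adjusted p = 0.00739) and Zfp352 (3.88, adjusted p = 0.0123) among them. Those 6 also fell in the released step, Zfp352 with -3.90 (adjusted p = 0.0106). Some are members of multigene families whose probes may share signal.

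Of 25 genes of oxidative and unfolded protein stress 0 were higher and 2 lower, Hmox1 and Cat, with a median of -0.30. Glb1, a lysosomal galactosidase, was the 1 gene of 30 on the lysosome list to be called (1.96, adjusted p = 0.0448), and this was lost in a fit of the 8 arrays alone and without any array other than array 1 of control day 3.5 (up to 0.166). The other lists had 0 calls by limma, and their medians stand beside the -0.125 of all genes, of which 1771 had an unadjusted p under 0.05. Of 36 S phase and DNA replication genes 6 had an unadjusted p under 0.05 (median -0.36), of 34 mitosis genes 3 (-0.05), of 31 ribosomal protein genes 0 (-0.07), of 42 ribosome biogenesis genes 2 (-0.18) and of 56 respiratory chain genes 1 (-0.01). Of 19 glycolysis genes 6 did (-0.32), of 20 fatty acid oxidation genes 2 (-0.39), of 27 sterol and fatty acid synthesis genes 6 (-0.11) and of 22 heat shock proteins and chaperonins 6 (-0.46). Of 26 p53 targets and cell cycle inhibitors 4 did (-0.24), of 12 regulators of the Bcl2 family 1 (0.19), of 20 Hippo pathway genes 3 (0.36), of 30 chromatin and DNA methylation regulators 3 (-0.11), of 18 imprinted genes 3 (-0.54) and of 12 clock genes 0 (0.09). With the replicate block 1 Hippo gene, 1 chromatin regulator, 1 glycolysis gene and 2 sterol or fatty acid synthesis genes were higher. Lower with the block were 3 glycolysis genes and 1 gene each of the chaperone, p53, fatty acid oxidation, sterol or fatty acid synthesis, imprinted, 2-cell stage, ERK cascade and blood lists. Over all 9929 genes the block called 249 higher and 364 lower. Cdkn1a, an inhibitor of the cell cycle induced by p53, had an interaction of -0.17 (adjusted p = 0.914), Trp53inp1 one of -0.09 (adjusted p = 0.949) and the DNA methyltransferase gene Dnmt3b one of 0.27 (adjusted p = 0.791). Aqp8 was too low to be tested, with a highest level of 5.45.

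Without the filter on low levels, with all 18193 genes tested, 209 genes were called. Of the 50 calls of named genes 18 then missed the threshold, those of Limch1, Gulp1, Sox17, Fcgr3, Clic3, Cldn9, Pitpnc1, Jun, Lrp2, Gata2, Prdm14, Tdgf1, Pdgfra, Ezr, Aqp11, Btg4, Glb1 and Slc7a7.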

How the data were processed

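The members, gene lists and alternatives were chosen with earlier results of these data known. Per the labels' protocols, 0.1 µg of total RNA went through 2 rounds of amplification. The authors deposited linear intensity values, made with GCRMA per the submitters' processing notes. The authors' software and settings beyond this are not given here. Array medians lay between 10.8 and 11.5, and the number of arrays limits the precision.

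Of 45101 probe sets, 34945 had 1 symbol, 932 several, 9160 none and 64 were controls. Genes took the probe set with the highest mean. Those with log2(intensity + 1) of at least 5 on 2 of 12 arrays were tested in limma 3.58.1 (R 4.3.3) with group means over all 12 arrays, 6 residual degrees of freedom and Benjamini-Hochberg adjustment. The fit was tested on simulated data. Same-numbered arrays deviated together: the 15 correlations between groups lay from 0.125 to 0.417, and the labels do not say what the number marks. Of 875 list entries 787 matched and 678 were tested. Named genes were the 12 largest interactions each way that also passed with levels under 5 set to 5, the 4 largest per class and direction, called list members (up to 6 per list) and 26 marker genes, of which Gapdh and H19 had no probe set with 1 symbol.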

Additional observations from a re-analysis of the deposited data

Results flagged for a closer look

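The test of the difference between the released and the control step flagged 101 genes with a higher and 130 with a lower step in released embryos, and the 50 called genes among those named. No group had enough arrays for a test of single outlying arrays.

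Of the end genes, the log2 difference between the steps was 6.59 for Gm4926, 5.53 for Elf5, 4.16 for Gulp1, 4.04 for Serpinb6b, 3.91 for Kctd15, 3.80 for Mdfic, 3.76 for Sox17, 3.67 for Nupr1, 3.65 for Cpd and 2.97 for Gata2. It was 2.34 for Slc7a7, 2.21 for Slc7a8, 1.97 for Wnt6, 1.96 for Glb1 and 1.50 for Bmp4. Lower steps were found for Tent5c (-4.16), Clic3 (-4.13), Pitpnc1 (-3.48) and Prelid2 (-3.34).

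Of the start genes, it was 3.42 for Omt2a, 3.27 for Dynap, 2.95 for Fcgr3, 2.88 for Khdc1a, 2.65 for Aqp11, 1.91 for Btg4 and 1.79 for Myc. Lower steps were found for Hmox1 (-4.90), Tex19.2 (-4.50), Rfx4 (-4.48), Cldn9 (-4.02), Cnpy2 (-3.83), 4933402E13Rik (-3.77), Obox3 (-3.54), Nanog (-3.27), Lrp2 (-3.15), Cat (-2.97), Ezr (-2.73) and Jun (-2.26).

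Of the genes with both differences, it was 4.39 for Limch1, 4.20 for Fam189a2, 3.89 for Slc39a2, 3.27 for Cebpa, 3.09 for Dusp6, -4.80 for Lama3, -3.99 for Thrsp, -3.03 for Camk2d and -2.76 for Tubb2a. Of those with neither difference called, it was 3.32 for Pdgfra, 3.29 for Prdm14 and 3.15 for Tdgf1.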

How the results depend on the processing

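With the replicate block, interactions were called in 613 genes, 249 higher and 364 lower, with 171 end, 360 start and 47 both genes. It called 1017 end differences, 2017 start differences, 2163 changes in the released step and 2500 sums of end and start. With the block and median centring, both combinations being chosen after seeing the data, the counts were 623, 350 and 273, with 198, 342 and 43 by class, and 1047, 2055, 2213 and 2635. With the block and levels under 5 set to 5 they were 875, 383 and 492, with 277, 472 and 67 by class, and 1341, 2019, 2364 and 2577. Levels under 5 set to 5 alone gave 421 interactions, 205 higher and 216 lower, with 161 end and 207 start genes. A pseudocount of 16 gave 157 higher and 122 end genes, and the 8 arrays alone gave 194 start genes. The cause was not tested.

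Leaving out 1 array, with its partner assumed to vary like the other groups, gave 30 to 115 interactions (15 to 60 higher, 15 to 55 lower), 10 to 64 end, 17 to 43 start and 0 to 8 both genes. It left 84 to 541 end differences, 267 to 1113 start differences, 321 to 1245 changes in the released and 676 to 1991 in the control step, and 652 to 1414 sums. Counts under the other alternatives stayed within 1.5 times the reported ones. Over the 68 named genes and the alternatives that kept them, the interaction stayed on its side of the threshold in 1029 results, passed in 14 and was lost in 233, with 0 reversals. Centring left 51.0% of the sums (65.1% without) and 45.3% of control step changes (61.7%) higher. In 110 of the 231 called genes at least 1 of the 4 groups lay under 5 on both arrays, which limits what their sizes show.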

Other observations

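Probe sets without a single gene symbol were fitted apart. Of 10092 such probe sets 2186 were high enough to be tested, and by limma 4 of them had a higher and 0 a lower step in released embryos, with 123 lower at an unadjusted p under 0.05. Of the 9929 named genes 231 were called (2.33%). The unadjusted count was taken for the lower direction only, so the directions cannot be compared here.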
